A study of Mus musculus with 11 samples.

Results

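The 5 thrombospondin genes, Thbs1, Thbs2, Thbs3, Thbs4 and Comp, were examined together with Cd47, a receptor of the thrombospondin-1 protein. They were taken by gene symbol from the counts of RNA sequencing of mouse aorta, so that 6 genes of the 27179 counted are described, and all 6 passed the filter on low counts. The study measured whole aortas, with arch, thoracic and abdominal segments, freed of the fat around the vessel, in 11 libraries from C57BL/6J mice in 3 groups. KO_HFD_LNAME holds 3 libraries from Mpst knockout mice, and WT_HFD_LNAME holds 4 from wild-type mice. From an age of 6 to 7 weeks both groups ate a diet with 45% of calories from fat for 15 weeks, after which L-NAME, which blocks nitric oxide (NO) synthases, was given for 5 more weeks. WT_CD holds 4 libraries from wild-type mice that ate chow (10% of calories from fat), for which the labels state 15 weeks, so that diet, inhibitor and age at collection cannot be told apart. No knockout mice on chow were included, and the labels do not say how the knockout was made. Whether the libraries are from different animals is likewise not stated, and p-values then refer to variation among libraries that may be technical.

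Thrombospondins are secreted, calcium-binding matrix glycoproteins. Thrombospondin-1 and thrombospondin-2 form trimers and carry type 1 repeats, while thrombospondin-3, thrombospondin-4 and Comp (cartilage oligomeric matrix protein) form pentamers without them. In the vessel wall, thrombospondin-1 bound to Cd47 is known to restrain NO signalling through soluble guanylate cyclase and endothelial NO synthase. Cd47 is a broadly expressed membrane protein that also binds Sirpa on phagocytes as an inhibitory signal.

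The libraries held 8665968 to 15340697 counts. Mpst, the gene knocked out, had 3, 5 and 4 counts in KO_HFD_LNAME libraries, against 317 to 431 in WT_HFD_LNAME and 265 to 532 in WT_CD libraries. The sum of 14 smooth muscle markers, in CPM (counts scaled to a common library size with TMM factors), was 30127 to 38081 in KO_HFD_LNAME, 20674 to 38599 in WT_HFD_LNAME and 20989 to 46627 in WT_CD, so the defining cell type of the aortic media was present in every library. WT_HFD_LNAME 3 and 4 stood apart by cardiac muscle markers, with sums of 1154 and 2962 CPM against 59.1 to 203 in the other libraries. Although the fat around the vessel is stated to have been removed, adipocyte markers had counts in every library. The sum of 12 such markers was 6559 to 11212 CPM in KO_HFD_LNAME, 5645 to 28143 in WT_HFD_LNAME and 1353 to 26215 in WT_CD. Ribosomal RNA (Rn45s) took 0.815% to 17.4% of counts, with its highest shares in WT_CD 1 and 2.

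Of the 6, only Thbs1 passed the test, in WT_HFD_LNAME against WT_CD, where 1.48% of all genes tested passed. There, 3.61 times as much Thbs1 RNA was measured in the aortas of mice on the fat diet with L-NAME. The call was lost in 7 of 11 fits that left out 1 library and in 6 of 12 other alternatives. The Thbs1 level in Mpst knockout aortas lay within the range of the wild-type aortas given the same treatment. Thbs4, at a far lower level, had a higher mean in both treated groups than in chow and Thbs3 a lower one, but neither passed after adjustment over all genes. Cd47 had a narrow range and did not pass the test. Its level in each knockout library was below that in each of the 8 wild-type libraries, as for 0.727% of the genes tested. In bulk tissue, fewer cells of a type and less RNA per cell cannot be told apart.

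**Figure D1:**
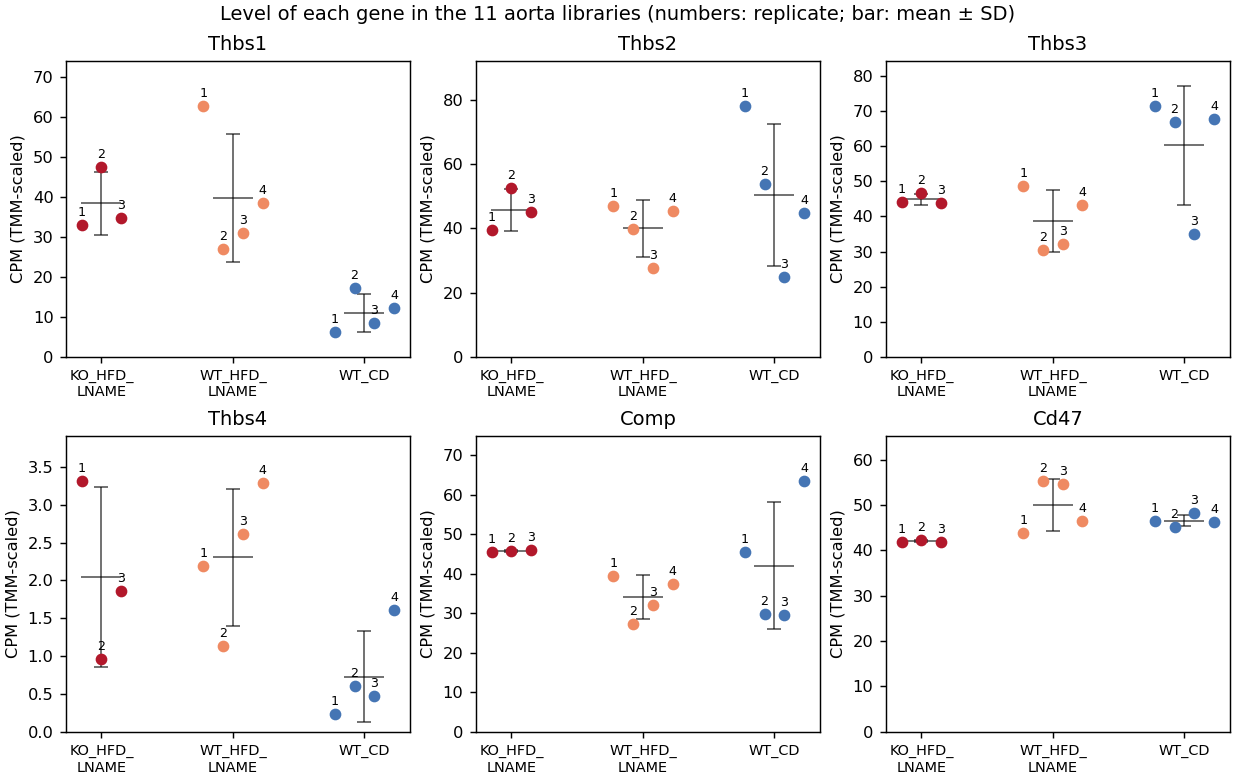
TMM-scaled CPM (vertical axes, each starting at 0) of the 6 genes in the 3 KO_HFD_LNAME, 4 WT_HFD_LNAME and 4 WT_CD libraries; points are libraries with their replicate number, bars the mean ± SD. The 4 chow values of Thbs1 lie below the 7 treated values. All WT_HFD_LNAME values exceed all WT_CD values for 5.31% of the genes tested, and all KO_HFD_LNAME values do so for 7.86%. The share for both together was not computed. The 3 knockout values of Cd47 lie below the other 8, as for 0.727% of the genes tested.

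Per length of exon, which allows a rough comparison between genes, Comp was the most abundant of the 6 over all libraries with a mean of 13.5 CPM per kilobase. The lengths are those of merged exons in GENCODE M21, while the annotation used for counting is not stated. Thbs3 followed with 10.0, Cd47 with 7.42, Thbs2 with 6.48 and Thbs1 with 4.75, and Thbs4 had 0.505 CPM per kilobase. The place of Thbs1 in this order differed by group, since Thbs1 and Thbs2 averaged 6.31 and 6.54 CPM per kilobase in KO_HFD_LNAME, 6.54 and 5.71 in WT_HFD_LNAME, and 1.80 and 7.21 in WT_CD. The spread over the 11 libraries ran in another order. The SD of log2(CPM + 0.5) was 1.03 for Thbs1, 0.81 for Thbs4, 0.44 for Thbs2, 0.42 for Thbs3, 0.36 for Comp and 0.14 for Cd47. Thbs1 thus varied most on this scale. The highest CPM was 13.9 times the lowest for Thbs4, 10.1 times for Thbs1 and 1.32 times for Cd47.

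Thbs1 (Entrez 21825; GRCm38 chr2:118111876-118127133, plus strand) encodes the thrombospondin best known as an activator of latent TGF-beta, an inhibitor of angiogenesis and a ligand of Cd47 and Cd36. Its level was 32.9, 47.3 and 34.7 CPM in KO_HFD_LNAME libraries 1 to 3, 62.6, 26.9, 30.8 and 38.4 CPM in WT_HFD_LNAME libraries 1 to 4, and 6.20, 17.2, 8.33 and 12.04 CPM in WT_CD libraries 1 to 4. The lowest treated library, WT_HFD_LNAME 2, was above the highest chow library, WT_CD 2, and the knockout values lay inside the range of the treated wild type. WT_HFD_LNAME 1 was the highest of all 11. These levels rest on 286 to 836 counts per treated library and 52 to 172 per chow library. Exons of the antisense long noncoding RNA gene Gm29233 cover 3.42% of the Thbs1 exon length, and since the counting is not stated to use strand, their reads cannot be told apart there.

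In WT_HFD_LNAME against WT_CD, Thbs1 averaged 39.7 ± 16.0 CPM in WT_HFD_LNAME and 10.9 ± 4.82 CPM in WT_CD (SD, n = 4 each). The log2 fold change was 1.85 (SE 0.34, 95% interval 1.11 to 2.60), with an adjusted p of 0.0327 in edgeR's quasi-likelihood test. In this comparison 1 of the 6 genes was called, and 1.48% of the 14303 genes tested were, of which most were higher in WT_HFD_LNAME (1.4% of the genes tested). Thbs1 was also 1 of the 5.31% of genes with every WT_HFD_LNAME library above every WT_CD library. The authors' deposited table gives Thbs1 a log2 fold change of 1.42 (SE 0.30) with an adjusted p of 0.000306, in a table where 3.84% of genes with an adjusted p pass the same threshold. DESeq2 run here on the same counts gave 1.86. Whether the deposited fold changes, here and below, were shrunken toward 0 is not stated, so they may not be like measures.

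The direction of the Thbs1 difference was the same under the 23 alternatives tried, but the call was not. Leaving out 1 library gave log2 fold changes of 1.54 to 2.15, and the call was lost without KO_HFD_LNAME 1 (adjusted p 0.0542), KO_HFD_LNAME 2 (0.0590), WT_HFD_LNAME 1 (0.0670), WT_HFD_LNAME 4 (0.0847), WT_CD 1 (0.0670), WT_CD 2 (0.0702) or WT_CD 4 (0.0977). Without both libraries high in cardiac markers the log2 fold change was 2.03 (adjusted p 0.0988), with a cardiac marker score as covariate 2.06 (0.129), and without both chow libraries high in ribosomal RNA 1.96 (0.170). The call was kept with DESeq2, at an adjusted p of 2.9e-05, and with other library scalings. The plot of Thbs1 under each setting shows that the fold change moved by less than its SE while the adjusted p crossed the threshold.

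**Figure D2:**
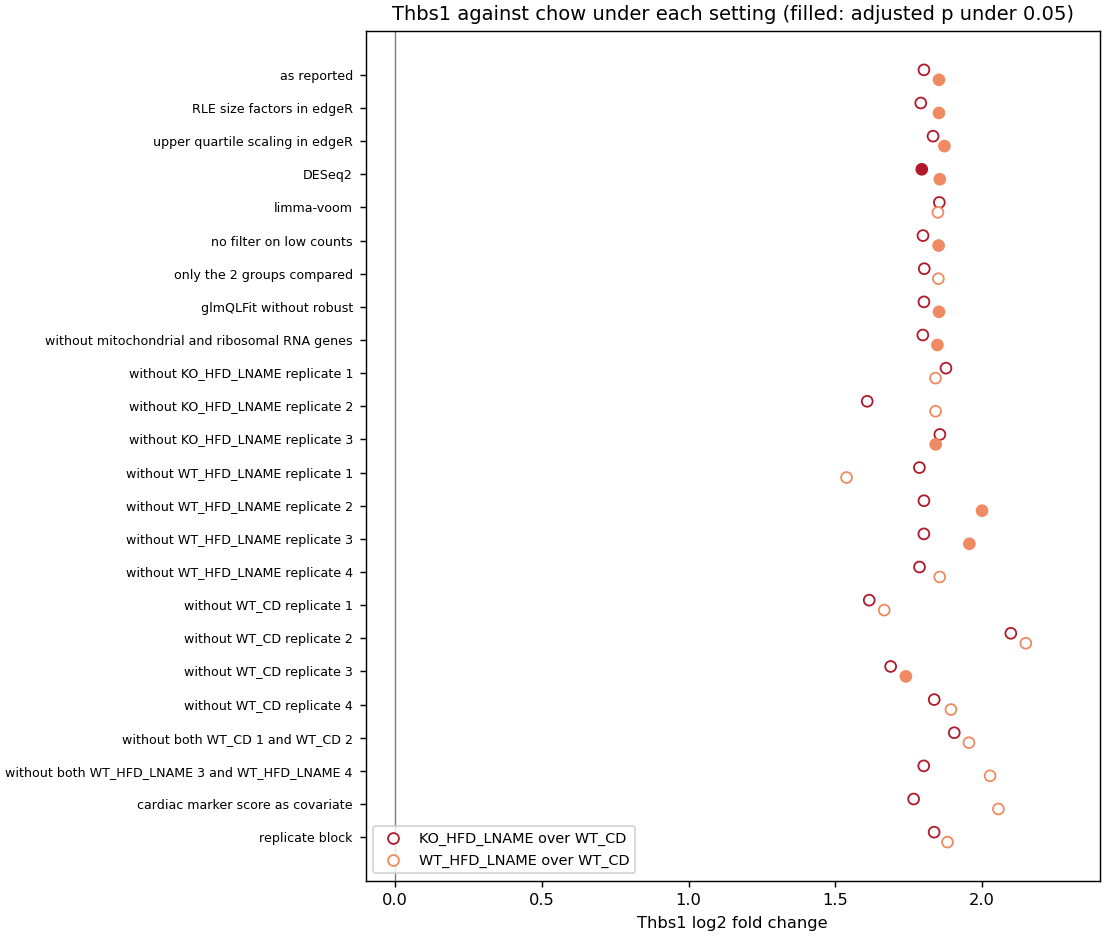
Thbs1 log2 fold change (horizontal axis, with 0 marked) of KO_HFD_LNAME over WT_CD and of WT_HFD_LNAME over WT_CD, in the reported fit (top) and under each alternative; filled points have an adjusted p under 0.05. For WT_HFD_LNAME over WT_CD the leave-one-out points run from 1.54 to 2.15 and some are open.

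Knockout aortas set against chow gave a Thbs1 log2 fold change close to that of the treated wild type. Thbs1 averaged 38.3 ± 7.88 CPM in KO_HFD_LNAME (n = 3) and 10.9 ± 4.82 CPM in WT_CD (n = 4), with a log2 fold change of 1.80 (SE 0.35, 95% interval 1.02 to 2.58). The edgeR adjusted p was 0.0629, above the threshold, and DESeq2 gave 0.000505. In this comparison 0 of the 6 genes were called and 0.315% of all genes were. Thbs1 was among the 7.86% of genes with every KO_HFD_LNAME library above every WT_CD library. The comparison shares its chow libraries with the one before and its knockout libraries with the next, so the 3 are not independent, and with no knockout mice on chow it differs in both genotype and treatment.

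Between the treated genotypes, Thbs1 averaged 38.3 ± 7.88 CPM in KO_HFD_LNAME (n = 3) and 39.7 ± 16.0 CPM in WT_HFD_LNAME (n = 4). The log2 fold change was -0.05 (SE 0.35) with a 95% interval of -0.81 to 0.71, that is 0.568 to 1.64 times the wild-type level, and an edgeR adjusted p of 0.989. Differences within that interval are compatible with these libraries, and the interval is not a limit of detection. Its sign is not determined: without WT_HFD_LNAME 1 it was 0.25, and with limma-voom 0.0048.

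Markers of several other cell types moved with Thbs1 against chow. In WT_HFD_LNAME against WT_CD, 1.4% of all genes tested were called higher, and the counts of called markers below are to be set beside that share. The sum of 16 endothelial markers was 938 to 1175 CPM in KO_HFD_LNAME, 955 to 1591 in WT_HFD_LNAME and 376 to 752 in WT_CD. Of the 16, 4 were called higher in WT_HFD_LNAME against WT_CD. The sum of 14 nerve and Schwann cell markers was 270 to 472 CPM in KO_HFD_LNAME, 287 to 1053 in WT_HFD_LNAME and 91.4 to 183 in WT_CD, with 8 of the 14 called higher in WT_HFD_LNAME against WT_CD. For B and plasma cell markers the sums were 160 to 677, 72.2 to 435 and 11.3 to 30.3 CPM in KO_HFD_LNAME, WT_HFD_LNAME and WT_CD, and 2 of the 9 tested were called higher in WT_HFD_LNAME against WT_CD. The sums of 12 mesothelial markers were 60.1 to 276 CPM in KO_HFD_LNAME, 32.3 to 112 in WT_HFD_LNAME and 20.4 to 26.9 in WT_CD. T and NK cell sums were 13.6 to 65.5 CPM in KO_HFD_LNAME, 5.10 to 7.50 in WT_HFD_LNAME and 2.60 to 4.21 in WT_CD. In WT_HFD_LNAME against WT_CD, 1 of the 12 mesothelial markers and 0 of the 9 tested T and NK cell markers were called higher. None of the endothelial, nerve, B cell, mesothelial and T cell sums overlapped between treated and chow libraries. How often sums of genes drawn at random would not overlap was not computed.

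Platelets carry thrombospondin-1 protein. The sum of 12 platelet markers was 58.0 to 74.1 CPM in KO_HFD_LNAME, 50.3 to 78.4 in WT_HFD_LNAME and 38.3 to 107 in WT_CD. These ranges overlapped. The platelet genes Pf4 and Ppbp had counts in every library. Smooth muscle sums, given above, overlapped as well. Erythroid markers lay in the other direction: 0 of 8 tested had a log2 fold change above 0 in WT_HFD_LNAME against WT_CD (median -1.93, 1 called lower) or in KO_HFD_LNAME against WT_CD (median -1.48, 0 called). Their sums overlapped, at 1327 to 3722 CPM in KO_HFD_LNAME, 1229 to 2380 in WT_HFD_LNAME and 945 to 10464 in WT_CD. No marker gene of these lists was at 0 in every library. The part of any of these cell types in the Thbs1 difference, platelets and smooth muscle included, was not tested.

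By shape over the 11 libraries, the profiles nearest to Thbs1 among 12770 candidate genes were those of Sparcl1, Klk11 and Palld, with root mean square differences of 0.36, 0.39 and 0.40 between centred log2(CPM + 0.5) values. Sparcl1, a matricellular relative of SPARC, averaged 583 ± 104 CPM in KO_HFD_LNAME, 682 ± 231 in WT_HFD_LNAME and 229 ± 63.4 in WT_CD. Palld, which encodes the actin-associated protein palladin, averaged 17.8 ± 3.56 CPM in KO_HFD_LNAME, 20.7 ± 9.59 in WT_HFD_LNAME and 8.37 ± 3.37 in WT_CD. Klk11, a kallikrein-related peptidase, was scarce at 1.90 ± 0.11 CPM in KO_HFD_LNAME, 2.39 ± 0.72 in WT_HFD_LNAME and 0.60 ± 0.60 in WT_CD. The 4 profiles share the libraries and their depth, and the likeness is a description.

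**Figure D3:**
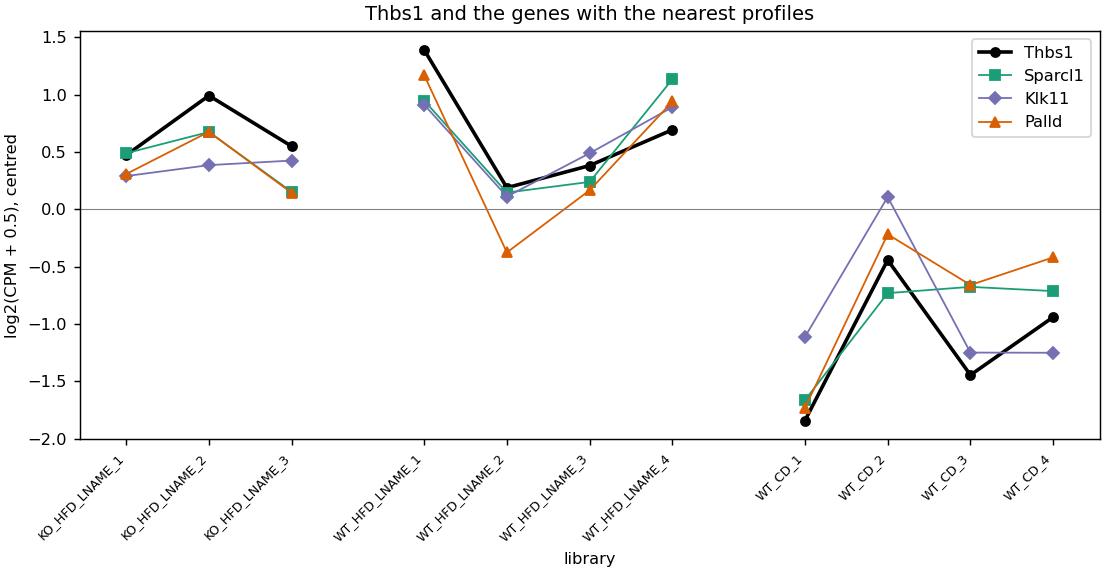
log2(CPM + 0.5) of Thbs1, Sparcl1, Klk11 and Palld (vertical axis), each centred on its mean over the 11 libraries, by library (horizontal axis). The 4 lines lie lower in most WT_CD libraries than in most of the 7 treated ones, with Klk11 in WT_CD 2 above 0 and Palld in WT_HFD_LNAME 2 below it.

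Thbs2 (Entrez 21826; chr17:14665500-14694235, minus strand) encodes the other trimeric thrombospondin, known for limiting angiogenesis and for a part in collagen fibril assembly. Its level was 39.5, 52.7 and 45.2 CPM in KO_HFD_LNAME libraries, 47.1, 39.8, 27.6 and 45.5 CPM in WT_HFD_LNAME libraries, and 78.1, 53.9, 24.9 and 44.9 CPM in WT_CD libraries. The 3 groups overlapped, and WT_CD held both the highest and the lowest value. The log2 fold change was 0.19 (SE 0.32, adjusted p 0.960) in KO_HFD_LNAME against WT_HFD_LNAME, -0.33 (SE 0.29, adjusted p 0.655) in WT_HFD_LNAME against WT_CD, and -0.14 (SE 0.32, adjusted p 0.904) in KO_HFD_LNAME against WT_CD, all in edgeR. The pair did not keep a constant proportion, since the ratio of Thbs1 to Thbs2 per exon length was 0.885 to 1.04 in KO_HFD_LNAME, 0.780 to 1.53 in WT_HFD_LNAME and 0.0915 to 0.386 in WT_CD. That ratio did not overlap between treated and chow libraries, and neither did the Thbs1 level alone.

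Thbs3 (Entrez 21827; chr3:89215180-89226837, plus strand) encodes a pentameric thrombospondin known in mice for a part in skeletal maturation. Its level was 44.1, 46.6 and 43.9 CPM in KO_HFD_LNAME libraries, 48.8, 30.5, 32.3 and 43.3 CPM in WT_HFD_LNAME libraries, and 71.5, 67.0, 35.0 and 67.9 CPM in WT_CD libraries. In 3 of the 4 chow libraries the level was above that of each treated library, and WT_CD 3 lay among the treated ones. The log2 fold change was -0.64 (SE 0.22, 95% interval -1.13 to -0.15, unadjusted p 0.0153, adjusted p 0.190) in WT_HFD_LNAME against WT_CD and -0.43 (SE 0.24, adjusted p 0.504) in KO_HFD_LNAME against WT_CD in edgeR. Without WT_CD 3 the first of these was -0.83 with an adjusted p of 0.0243, so that Thbs3 passed the test there.

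The 3 libraries with the lowest Thbs3 levels, WT_HFD_LNAME 2 and 3 and WT_CD 3, were also those with the lowest smooth muscle sums (26355, 20674 and 20989 CPM) and the highest adipocyte sums (19740, 28143 and 26215 CPM). In the other libraries the smooth muscle sums were 30127 to 46627 CPM and the adipocyte sums 1353 to 11212 CPM. The part of this tissue difference in the Thbs3 values was not tested.

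Between the treated genotypes, Thbs3 averaged 44.9 ± 1.52 CPM in KO_HFD_LNAME (n = 3) and 38.7 ± 8.77 CPM in WT_HFD_LNAME (n = 4), with a log2 fold change of 0.21 (SE 0.24, edgeR adjusted p 0.950). Exons of Mtx1, a gene of mitochondrial protein import on the opposite strand that in mice shares a promoter region with Thbs3, cover 6.59% of the Thbs3 exon length. Mtx1 averaged 36.4 ± 3.40 CPM in KO_HFD_LNAME, 36.4 ± 6.88 in WT_HFD_LNAME and 40.4 ± 7.89 in WT_CD. Its log2 fold change was -0.15 (SE 0.16, edgeR adjusted p 0.716) in WT_HFD_LNAME against WT_CD, and it had its highest level, 51.8 CPM, in WT_CD 3, where Thbs3 was lowest among the chow libraries. Next highest in Mtx1 was WT_HFD_LNAME 3 (45.2 CPM). Both libraries had low smooth muscle and high adipocyte sums, as given above, and the part of this in the Mtx1 values was not tested. Neither gene passed the test in WT_HFD_LNAME against WT_CD, and a difference between the 2 genes was not tested. The promoter is shown because Thbs3 and Mtx1 meet there.
Thbs3 promoter (RefSeq, GRCm38.p6 chr3:89214930-89215229, plus strand): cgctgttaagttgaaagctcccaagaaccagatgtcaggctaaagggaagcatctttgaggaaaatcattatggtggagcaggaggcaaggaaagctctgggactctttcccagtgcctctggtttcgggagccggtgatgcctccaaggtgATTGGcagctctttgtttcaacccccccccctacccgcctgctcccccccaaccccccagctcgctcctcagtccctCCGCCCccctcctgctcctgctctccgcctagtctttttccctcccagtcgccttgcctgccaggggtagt
In these 300 bases, which span 250 bases before the start and 50 after it, capitals mark 1 CCAAT box (CCAAT, here on the minus strand as ATTGG) and 1 GC box (GGGCGG, here on the minus strand as CCGCCC). No TATA box (TATAAA) was found on either strand, and the GC content was 59%. Of 32851 mouse promoters of the same length, 37.4% held CCAAT, 35.7% GGGCGG and 13.6% TATAAA on either strand. A match describes the letters and is not shown to be a binding site.

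Thbs4 (Entrez 21828; chr13:92751590-92794818, minus strand) encodes a pentameric thrombospondin of tendon, muscle and nerve, which in mouse heart is linked to the endoplasmic reticulum (ER) stress response through Atf6. It was the scarcest of the 6, with 43, 17 and 27 counts in KO_HFD_LNAME libraries, 27, 12, 31 and 48 in WT_HFD_LNAME libraries, and 2, 6, 5 and 23 in WT_CD libraries. In CPM these were 3.31, 0.96 and 1.86 in KO_HFD_LNAME, 2.19, 1.13, 2.61 and 3.29 in WT_HFD_LNAME, and 0.24, 0.60, 0.47 and 1.61 in WT_CD. WT_CD 4 had more Thbs4 than KO_HFD_LNAME 2 and WT_HFD_LNAME 2, so that the groups overlapped, and the other 3 chow libraries lay below the 7 treated ones.

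The Thbs4 log2 fold change was 1.58 (SE 0.57, 95% interval 0.32 to 2.84, unadjusted p 0.0187, adjusted p 0.210) in WT_HFD_LNAME against WT_CD and 1.39 (SE 0.61, 95% interval 0.05 to 2.72, adjusted p 0.354) in KO_HFD_LNAME against WT_CD in edgeR. In KO_HFD_LNAME against WT_HFD_LNAME it was -0.19 (SE 0.57, 95% interval -1.45 to 1.06, adjusted p 0.971). The authors' deposited table gives 0.93 for WT_HFD_LNAME against WT_CD, with an adjusted p of 0.144, while DESeq2 run here gave a log2 fold change of 1.61. The sum of 18 tendon and cartilage markers, a list that holds neither Thbs4 nor Comp, was 343 to 452 CPM in KO_HFD_LNAME, 386 to 514 in WT_HFD_LNAME and 215 to 365 in WT_CD, and Col2a1, the collagen of cartilage, had 0 to 8 counts per library. The nerve marker sums given beside Thbs1 did not overlap between treated and chow libraries. Their part in the Thbs4 values was not tested.

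The profiles nearest to that of Thbs4 were those of S1pr4, a sphingosine-1-phosphate receptor of leukocytes, Celsr1, a planar polarity cadherin, and Wscd1, with root mean square differences of 0.33, 0.34 and 0.36 over the 11 libraries. S1pr4 averaged 3.82 ± 2.18 CPM in KO_HFD_LNAME, 3.05 ± 1.10 in WT_HFD_LNAME and 1.46 ± 0.49 in WT_CD. The other 4 genes had an SD below the 0.5 set for naming such neighbours. The Thbs4 promoter is shown as that of the scarcest of the 6 genes, beside the Thbs3 promoter.
Thbs4 promoter (RefSeq, GRCm38.p6 chr13:92794769-92795068, minus strand): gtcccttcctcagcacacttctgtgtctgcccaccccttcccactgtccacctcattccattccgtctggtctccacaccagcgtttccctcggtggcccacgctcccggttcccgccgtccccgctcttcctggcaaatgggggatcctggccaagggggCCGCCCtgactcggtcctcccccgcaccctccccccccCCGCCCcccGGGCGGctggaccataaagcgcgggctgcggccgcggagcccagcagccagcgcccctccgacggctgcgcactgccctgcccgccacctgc
Capitals mark 3 GC boxes (GGGCGG, or CCGCCC where it lies on the minus strand of the promoter), and neither CCAAT nor TATAAA was found in this window on either strand. Its GC content was 72%, against 59% in the Thbs3 promoter.

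Comp (Entrez 12845; chr8:70373558-70382066, plus strand) is named for cartilage and is also made in the vessel wall, where it is known in mice as a matrix protein of smooth muscle cells. Its level was 45.5, 45.9 and 45.9 CPM in KO_HFD_LNAME libraries, 39.4, 27.2, 32.2 and 37.5 CPM in WT_HFD_LNAME libraries, and 45.5, 29.8, 29.5 and 63.4 CPM in WT_CD libraries. The 3 knockout values were close to each other and above the 4 treated wild-type values. Libraries of these 2 groups did not overlap, in either direction, for 7.87% of the genes tested. The chow values spanned both groups. In KO_HFD_LNAME against WT_HFD_LNAME the log2 fold change was 0.42 (SE 0.25, 95% interval -0.12 to 0.97, unadjusted p 0.114, adjusted p 0.950) in edgeR. The authors' deposited table gives 0.37 (SE 0.15), with an unadjusted p of 0.0134 and an adjusted p of 0.457.

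Scx, a transcription factor that marks tendon, had 18.3 to 24.0 CPM in KO_HFD_LNAME and 8.17 to 15.5 CPM in WT_HFD_LNAME. Its log2 fold change was 0.91 (edgeR adjusted p 0.803), and it was among the 7.87% of genes without overlap between these groups. It was picked out of the tendon and cartilage markers after its values were seen. Of the 14 tested markers of that list, 5 had a log2 fold change above 0 in this comparison and 0 were called, with a median of -0.30, so most lay in the other direction, and the summed levels overlapped between the 2 treated groups. Against chow, Comp had a log2 fold change of -0.30 (SE 0.23, adjusted p 0.585) in WT_HFD_LNAME and 0.12 (SE 0.25, adjusted p 0.890) in KO_HFD_LNAME in edgeR. The second of these was -0.01 without WT_CD 2 and -0.02 without WT_CD 3.

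Cd47 (Entrez 16423; chr16:49800533-49915010, plus strand), the receptor, had 41.9, 42.2 and 41.9 CPM in KO_HFD_LNAME libraries, 43.7, 55.2, 54.5 and 46.6 CPM in WT_HFD_LNAME libraries, and 46.5, 45.2, 48.2 and 46.3 CPM in WT_CD libraries. The 3 knockout values lay below the 8 wild-type values, as in 0.727% of the genes tested, a share that counts this direction only. The gap to the nearest library, WT_HFD_LNAME 1, was small beside the range of the treated wild type. The log2 fold change was -0.25 (SE 0.11, 95% interval -0.48 to -0.02) in KO_HFD_LNAME against WT_HFD_LNAME, with an unadjusted p of 0.0355 and an adjusted p of 0.939 in edgeR. The authors' deposited table gives -0.23 for that comparison, with an adjusted p of 0.720. In KO_HFD_LNAME against WT_CD it was -0.15 (SE 0.11, adjusted p 0.619) and in WT_HFD_LNAME against WT_CD 0.10 (SE 0.10, 95% interval -0.11 to 0.32, adjusted p 0.676).

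The 95% interval of Cd47 in WT_HFD_LNAME against WT_CD corresponds to 0.926 to 1.25 times the chow level. The 2 highest Cd47 values belonged to WT_HFD_LNAME 2 and 3, which had low smooth muscle and high adipocyte sums, as given for Thbs3. WT_CD 3, the third such library, had the highest Cd47 level of the chow group. The part of this tissue difference in the Cd47 values was not tested.

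In KO_HFD_LNAME against WT_HFD_LNAME 0 of the 6 genes were called, and 2 of all genes were, which is 0.014%. At an unadjusted p under 0.05 the count was 1 of 6, Cd47, against 5.12% of all genes. DESeq2 called 0 of the 6 as well. The libraries of the 2 groups did not overlap for 2 of the 6, Comp and Cd47, and for 7.87% of all genes. In WT_HFD_LNAME against WT_CD, 3 of the 6 had an unadjusted p under 0.05, namely Thbs1, Thbs3 and Thbs4, against 15.1% of all genes. In KO_HFD_LNAME against WT_CD it was 2 of the 6, Thbs1 and Thbs4, against 13.3%.

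**Figure D4:**
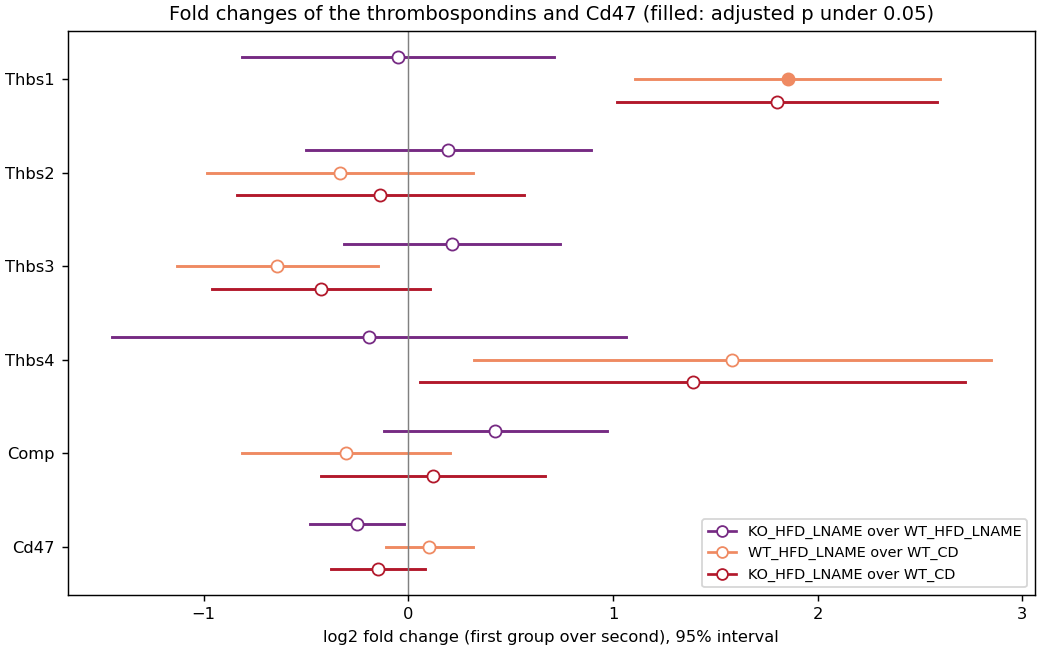
log2 fold changes (horizontal axis, first group over second) of the 6 genes with 95% intervals (lines) in the 3 comparisons; filled points have an edgeR adjusted p under 0.05. The filled point is Thbs1 in WT_HFD_LNAME over WT_CD, at 1.85.

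Seen as parts of the family, the 5 thrombospondins had a different make-up in treated and in chow aortas. Their summed level averaged 38.2 ± 2.23 CPM per kilobase in KO_HFD_LNAME (n = 3), 32.5 ± 7.12 in WT_HFD_LNAME and 35.9 ± 10.0 in WT_CD (SD, n = 4 each). Thbs1 made up 14.8%, 19.1% and 15.3% of that sum in KO_HFD_LNAME libraries, 25.1%, 17.1%, 18.6% and 17.9% in WT_HFD_LNAME libraries, and 2.41%, 8.17%, 6.16% and 4.47% in WT_CD libraries. Thbs3 made up 23.7% to 25.0% in KO_HFD_LNAME, 24.4% to 25.3% in WT_HFD_LNAME and 31.7% to 40.1% in WT_CD. Neither share overlapped between treated and chow libraries, and this includes WT_CD 3, in which the Thbs3 level itself was low. Comp averaged 40.5% ± 2.19 in KO_HFD_LNAME (n = 3), 35.7% ± 3.01 in WT_HFD_LNAME and 39.5% ± 8.64 in WT_CD (SD, n = 4 each). Since the shares add up to the whole, a larger share of one gene lowers those of the others by construction.

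**Figure D5:**
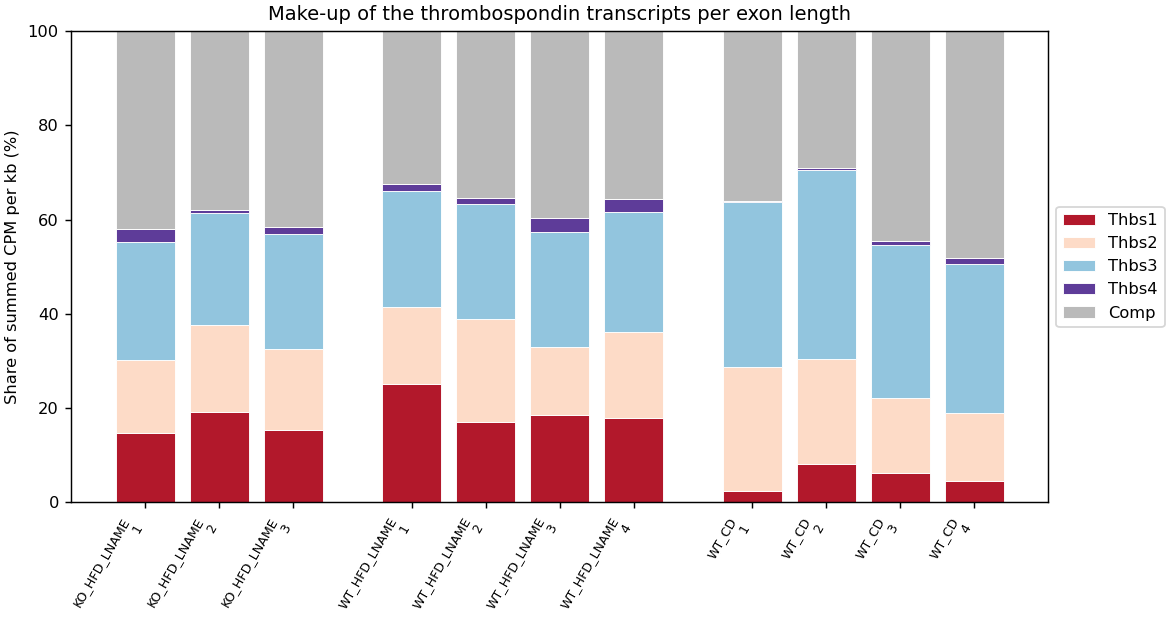
Share (%) of Thbs1, Thbs2, Thbs3, Thbs4 and Comp in their summed CPM per kilobase of exon, 1 bar per library. The Thbs1 part is 14.8% to 25.1% in the 7 treated libraries and 2.41% to 8.17% in the 4 chow libraries.

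The other genes of thrombospondin and Cd47 biology were taken from 9 lists and are given by counts, with medians beside those over all tested genes, which were -0.01 in KO_HFD_LNAME against WT_HFD_LNAME, -0.03 in WT_HFD_LNAME against WT_CD and -0.04 in KO_HFD_LNAME against WT_CD. Adjusted p-values are from edgeR. Of 13 thrombospondin receptors other than Cd47, 0 were called in each comparison, and the median log2 fold changes were 0.15, -0.04 and 0.01 in the same order. Nearest to the threshold was Itgb3, the beta 3 integrin subunit, with 54.8 ± 5.90 CPM in KO_HFD_LNAME, 43.9 ± 9.75 in WT_HFD_LNAME and 80.1 ± 18.2 in WT_CD. Its log2 fold change in WT_HFD_LNAME against WT_CD was -0.87 (SE 0.20, adjusted p 0.0568), and that of Itga6, an integrin subunit that binds laminin, was 1.42 (adjusted p 0.201). Between treated genotypes the smallest p-values belonged to Calr, the chaperone calreticulin (0.39, adjusted p 0.865), and Itgb3 (0.32, adjusted p 0.950), and in KO_HFD_LNAME against WT_CD to Itga6 (1.57, adjusted p 0.228) and Itga4 (0.73, adjusted p 0.267).

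The fatty acid transporter Cd36, the receptor through which thrombospondin-1 acts on small-vessel endothelium and also an adipocyte gene, varied widely, at 682 ± 77.4 CPM in KO_HFD_LNAME, 918 ± 517 in WT_HFD_LNAME and 516 ± 582 in WT_CD. The integrin subunit Itgav had 94.1 ± 17.7, 102 ± 20.5 and 96.1 ± 21.1 CPM in KO_HFD_LNAME, WT_HFD_LNAME and WT_CD. Neither gene differed beyond its spread. Of 10 partners of Cd47, 0 were called in each comparison, with medians of 0.08, 0.07 and 0.06. Sirpa, the phagocyte receptor that Cd47 engages, had 37.2 ± 3.31 CPM in KO_HFD_LNAME, 29.2 ± 6.64 in WT_HFD_LNAME and 26.9 ± 2.46 in WT_CD. Its log2 fold change was 0.35 (SE 0.16, adjusted p 0.950) in KO_HFD_LNAME against WT_HFD_LNAME and 0.46 (SE 0.16, adjusted p 0.249) in KO_HFD_LNAME against WT_CD. Every KO_HFD_LNAME library lay above every WT_CD library, as for 7.86% of the genes tested. After Sirpa or Itgb3 came Bnip3, a mitochondrial protein that in cultured cells binds Cd47 (-0.83, adjusted p 0.950), between treated genotypes, and the VEGF receptor Kdr in WT_HFD_LNAME against WT_CD (1.45, adjusted p 0.252) and in KO_HFD_LNAME against WT_CD (1.56, adjusted p 0.293).

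Of the 12 tested genes of the NO and superoxide axis downstream of Cd47, 0 were called in each comparison, with medians of -0.10, 0.01 and -0.01. Nos3 encodes the NO synthase of endothelium, a target of L-NAME, and had 46.8 ± 5.35 CPM in KO_HFD_LNAME, 51.7 ± 10.7 in WT_HFD_LNAME and 22.3 ± 10.2 in WT_CD. Every WT_HFD_LNAME library lay above every WT_CD library, as for 5.31% of the genes tested. Every KO_HFD_LNAME library did so as well, as for 7.86%. The log2 fold change was 1.20 (SE 0.34, adjusted p 0.110) in WT_HFD_LNAME against WT_CD and 1.06 (SE 0.36, adjusted p 0.233) in KO_HFD_LNAME against WT_CD. Nos3 and Kdr are endothelial markers and part of the endothelial sum, which moved as given beside Thbs1. Between treated genotypes the smallest p-values belonged to Cyba, a subunit of NADPH oxidases (0.35, adjusted p 0.950), and Pde5a, the phosphodiesterase that degrades cyclic GMP (-0.29, adjusted p 0.950).

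Of 18 genes of latent TGF-beta and its targets, 0 were called in each comparison, with medians of 0.22, -0.11 and 0.11. Tgfb1 itself had 58.2 ± 9.92 CPM in KO_HFD_LNAME, 54.0 ± 10.6 in WT_HFD_LNAME and 39.7 ± 6.79 in WT_CD. Its log2 fold change was 0.44 (SE 0.18, adjusted p 0.255) in WT_HFD_LNAME against WT_CD and 0.55 (SE 0.19, adjusted p 0.231) in KO_HFD_LNAME against WT_CD. Elastin (Eln) had -0.88 in WT_HFD_LNAME against WT_CD (adjusted p 0.311). Ltbp3, a latent TGF-beta binding protein, had 0.29 between treated genotypes (adjusted p 0.950).

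Among 18 tested matricellular proteins, 3 rose in WT_HFD_LNAME against WT_CD and 0 fell, where 1.4% of all genes tested were called higher, and the list's median was 0.09. They were Sparcl1, with a log2 fold change of 1.58 (SE 0.29, adjusted p 0.0327), Spp1 and Spock3. Spp1, which encodes osteopontin, had 7.53 ± 3.42 CPM in KO_HFD_LNAME, 12.6 ± 5.51 in WT_HFD_LNAME and 2.03 ± 0.87 in WT_CD, with a log2 fold change of 2.65 (SE 0.47, adjusted p 0.0302) in WT_HFD_LNAME against WT_CD. Spock3, a testican proteoglycan of the nervous system, had 17 to 96 counts per KO_HFD_LNAME library, 15 to 122 per WT_HFD_LNAME library and 1 count in all WT_CD libraries together (adjusted p 0.0236 in WT_HFD_LNAME against WT_CD). The ratio of its scaled counts was 266 there, with a lower 95% bound of 47.5 for counting error only. The nerve marker sums given beside Thbs1 moved with Spock3, and their part was not tested.

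In KO_HFD_LNAME against WT_CD, 0 of the matricellular genes were called and the median was 0.04. The smallest p-values there belonged to Spock3 (adjusted p 0.0531) and Ccn5, a growth-arrest matricellular protein of smooth muscle (-1.89, adjusted p 0.0798). Between treated genotypes 0 were called, the median was -0.10, and Spock1 (-1.83) and Spp1 (-0.74) had the smallest p-values, each with an adjusted p of 0.950. Of 25 tested genes that share the thrombospondin type 1 repeat, 2 rose in WT_HFD_LNAME against WT_CD and 0 fell, again beside 1.4% of all genes called higher, with a median of 0.08. Thsd7a, with 7.32 ± 2.13 CPM in WT_HFD_LNAME and 2.37 ± 0.68 in WT_CD, had a log2 fold change of 1.61 (adjusted p 0.0247). Thsd1, known in endothelium, had 5.81 ± 1.14 CPM in WT_HFD_LNAME and 2.22 ± 0.66 in WT_CD, with 1.39 (adjusted p 0.0387). In the 2 comparisons of KO_HFD_LNAME 0 were called, with medians of 0.09 against WT_HFD_LNAME and 0.22 against WT_CD. Spon2, a secreted matrix protein, had 1.58 (adjusted p 0.803) and Unc5d 0.76 (adjusted p 0.950) against WT_HFD_LNAME, and Ccn5 and Spon2 (2.36, adjusted p 0.0965) had the smallest p-values against WT_CD.

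Of 16 tested proteases and matrix partners of thrombospondins, 0 were called in each comparison, with medians of 0.11, -0.01 and 0.20. Matn2, which encodes the matrix adaptor matrilin-2, had 0.80 in WT_HFD_LNAME against WT_CD (adjusted p 0.0845), and fibrillin-1 (Fbn1) had -0.55 (adjusted p 0.139). The matrix metalloproteinase Mmp9 had 1.31 against WT_HFD_LNAME (adjusted p 0.939) and 1.31 against WT_CD (adjusted p 0.330) in KO_HFD_LNAME, and Mmp14 had 0.48 (adjusted p 0.950) and 0.46 (adjusted p 0.372) in the same order.

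The 15 ER folding genes of the Atf6 arm, to which Thbs4 is linked in mouse heart, had 0 called members in each comparison. In KO_HFD_LNAME against WT_HFD_LNAME 14 of the 15 log2 fold changes were above 0, with a median of 0.33. Over all genes tested, 52.3% were below 0 there. In WT_HFD_LNAME against WT_CD 1 of 15 was above 0, with a median of -0.11, and 53.9% of all genes were below 0. These comparisons share the WT_HFD_LNAME libraries. In KO_HFD_LNAME against WT_CD 11 of 15 were above 0, with a median of 0.17, and 55.7% of all genes were below 0. Between treated genotypes the smallest p-values belonged to the ER chaperone Hyou1 (0.63, adjusted p 0.726) and the disulfide isomerase Pdia4 (0.41, adjusted p 0.762). In WT_HFD_LNAME against WT_CD they belonged to Pdia4 (-0.30, adjusted p 0.245) and the stress transcription factor Ddit3 (-0.22, adjusted p 0.364), and in KO_HFD_LNAME against WT_CD to Sdf2l1 (0.94, adjusted p 0.200) and Hyou1 (0.34, adjusted p 0.368).

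Thbs1 is also known as a gene of the early response to serum, and of the 20 tested immediate early and serum response genes 0 were called in each comparison, with medians of 0.28, -0.32 and 0.05. Their summed level was 2536 to 4130 CPM in KO_HFD_LNAME, 2178 to 3366 in WT_HFD_LNAME and 1956 to 4779 in WT_CD, and overlapped. The transcription factor Atf3 had 1.31 (adjusted p 0.726) in KO_HFD_LNAME against WT_HFD_LNAME and 1.47 (adjusted p 0.0934) against WT_CD, and Egr2 1.09 (adjusted p 0.208) against WT_CD. Ankrd1 had -1.11 (adjusted p 0.950) between treated genotypes. In WT_HFD_LNAME against WT_CD the smallest p-values belonged to Klf4 (0.46, adjusted p 0.143) and Egr2 (0.95, adjusted p 0.193), both early transcription factors.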

How the data were processed

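RNA was extracted with TRIzol and made into libraries with an NEBNext Ultra II kit, per the labels' protocols. Per the submitters' processing notes, the authors used Trimmomatic 0.39, HISAT2 2.2.1, featureCounts 2.0.3 and DESeq2 2.11.40.7 with GRCm38/mm10; the annotation, strand setting and handling of multiply aligned reads are not given in the sources used here. The deposited values are whole-number read counts per gene, without normalization. The authors also deposited log2 fold changes with their SE, and a p-value and adjusted p-value per gene, for 2 comparisons.

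The counts were analysed in R 4.3.3 with edgeR 4.0.16. The filterByExpr step by group kept 14303 of 27179 genes, TMM factors ran from 0.814 to 1.15, and 1 model with a mean per group was fitted to the 11 libraries with robust glmQLFit. Comparisons used glmQLFTest (two-sided), and Benjamini-Hochberg adjustment ran over all tested genes with a threshold of 0.05. Standard errors (SE) come from the F statistic. Plotted values are log2(CPM + 0.5). Levels per length use merged exons of GENCODE M21, which also gave positions. Alternatives, in limma 3.58.1 and DESeq2 1.42.0 among others, are described in the closing section. The fits were tested on simulated counts. Replicate numbers were not treated as pairs in the reported fit. No 2 libraries of the same group were near-identical.

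The genes and the 23 lists (320 genes, of which 319 are in the file) were chosen with earlier results of these data known. Of these, 14 are cell type marker lists, given by sums and counts. From each of the other 9 the called members were named, up to 4, or the 2 of smallest p where none was called, except for 1 gene that is not reported here. Nos3, Sirpa, Cd36, Itgav, Itgb3 and Tgfb1 were always named, as were genes whose exons overlap one of the 6. Neighbouring profiles were named for genes with an SD of log2(CPM + 0.5) of 0.5 or more. Promoter sequences of 4 of the 6 genes matched by symbol in RefSeq's GRCm38.p6 table, those of Thbs2, Thbs3, Thbs4 and Cd47; the others were Thbs1 and Comp.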

Additional observations from a re-analysis of the deposited data

Results flagged for a closer look

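Thbs3 in the WT_CD group was picked out because 1 library lay far from the rest of its group: WT_CD 3 had 35.0 CPM, against 67.0 to 71.5 CPM in the other 3 chow libraries, a gap of 0.878 of the group's range. WT_CD 3 also had the lowest smooth muscle sum of the chow group (20989 CPM) and the highest adipocyte sum (26215 CPM). It was 1 of 24 groups of values examined, and chance picks out about 1 in 20.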

How the results depend on the processing

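Thbs1 was higher in WT_HFD_LNAME than in WT_CD under every alternative run (11 that left out 1 library and 12 others), and the call was kept in 4 of the 11 and in 6 of the 12. It was lost, which left 0 of the 6 genes called, with limma-voom (1.85, adjusted p 0.0634), with only the 2 groups fitted (1.85, 0.0813), without both WT_CD 1 and WT_CD 2 (1.96, 0.170), without both WT_HFD_LNAME 3 and 4 (2.03, 0.0988), with a cardiac marker covariate (2.06, 0.129) and with the replicate number as a block (1.88, 0.0754). Leaving out 1 library gave 1.54 to 2.15, with 0 to 2 of the 6 genes called. In KO_HFD_LNAME against WT_CD, DESeq2 called 1 of the 6, Thbs1 (1.79, adjusted p 0.000505), and leaving out 1 library gave 1.61 to 2.10. In KO_HFD_LNAME against WT_HFD_LNAME, Thbs1 turned sign with limma-voom (0.0048), and leaving out 1 library gave -0.23 to 0.25, with 0.04 without KO_HFD_LNAME 1, 0.01 without KO_HFD_LNAME 3 and 0.25 without WT_HFD_LNAME 1. Thbs4 there turned to 0.16 without KO_HFD_LNAME 2, 0.03 without WT_HFD_LNAME 4, 0.28 without both WT_HFD_LNAME 3 and 4, 0.12 with the cardiac covariate and 0.11 with the replicate block (leaving out 1 library, -0.73 to 0.16), and Thbs2 to -0.10 with the cardiac covariate. Thbs2 turned to 0.19 in WT_HFD_LNAME against WT_CD without both WT_CD 1 and 2, and in KO_HFD_LNAME against WT_CD to 0.15 without WT_CD 1 and 0.39 without both (leaving out 1 library, -0.36 to 0.15). Comp in KO_HFD_LNAME against WT_CD turned to -0.014 without WT_CD 2, -0.018 without WT_CD 3 and -0.025 without both WT_CD 1 and 2, with 0.38 at the other end of the leave-one-out range. Each of these sign changes was in a value that had not passed the test, and the cause was not tested.

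Counts of called genes moved more. Against the 2 of all genes called in KO_HFD_LNAME against WT_HFD_LNAME, leaving out 1 library gave 1 to 3 and the other alternatives 1 to 34, the highest with DESeq2. Against the 212 in WT_HFD_LNAME against WT_CD the ranges were 2 to 521 and 0 to 863, and against the 45 in KO_HFD_LNAME against WT_CD 4 to 102 and 3 to 555, again highest with DESeq2. With the replicate block, 42 genes were called in WT_HFD_LNAME against WT_CD and 13 in KO_HFD_LNAME against WT_CD. Deviations of same-numbered libraries correlated at -0.23 to -0.07 in KO_HFD_LNAME and WT_HFD_LNAME and at -0.12 to 0.59 in WT_HFD_LNAME and WT_CD. In KO_HFD_LNAME and WT_CD they correlated at -0.12 to 0.30. With 3 or 4 such pairs per comparison, these values cannot decide whether the numbers mark pairs. Depth limits Thbs4 most, with 2 to 48 counts per library.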
